A study of Mus musculus with 6 samples.

Results

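The extracellular matrix genes of the muscle stem cell niche were examined in ATAC-seq, which maps open chromatin by the cuts of the transposase Tn5. The 43 genes encode collagens, laminins, nidogens, perlecan, fibronectin, fibrillins, proteoglycans, matricellular proteins, and the enzymes and inhibitors that crosslink or cleave matrix. The members were the peaks listed under 1 of these gene symbols in the deposited peak table: 110 of 75412 peaks, under 42 of the 43 genes. Loxl2 had no listed peak in the table used here. A peak whose centre lay within 1000 bp of the transcription start site (TSS) of its gene was taken as a TSS peak (38 peaks of 37 genes), and the 72 remaining peaks as other peaks, which reached up to about 10 kb from the TSS.

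Muscle stem cells (MuSCs) were freshly isolated from C57BL/6 mice by depletion of SCA1+, CD45+ and CD31+ cells and sorting for integrin α7 or a Pax7 reporter, and 50000 cells went into each library. The knockout mice, Taf4a sKO, carried Pax7CRE-ERT, a tamoxifen-inducible Cre driven by Pax7, which in adult muscle marks MuSCs, and Taf4a flox/flox, whose exons 11 and 12 are excised by Cre. Controls, titled WT, were littermates that also carried floxed Taf4a. The study lists controls with and without the Cre, and which of them gave these libraries was not given in the sources used here. Mice of both sexes were used, and tamoxifen was given at 8 to 20 weeks of age. The study names this treatment in its description of the Taf4a sKO mice. Whether the controls of these libraries also received tamoxifen was not given in the sources used here, and its part in the comparison was not tested. The interval from tamoxifen to the ATAC-seq isolation was likewise not given. Each genotype had 3 libraries, described as biological replicates. TAF4A is a subunit of the general transcription factor TFIID, and the comparison asks how chromatin accessibility differs when it is lost.

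A peak over floxed exon 12 of Taf4 checked the labels. Its values were 65, 78 and 137 in the controls and 44, 22 and 25 in Taf4a sKO, without overlap (log2 fold change -1.58, SE 0.30, limma adjusted p = 0.00034). The values are read counts per peak that the authors scaled for sequencing depth and rounded. They summed to between 35226223 and 44311913 per library over all peaks. Among controls the log2 values of all peaks correlated at a Pearson r of 0.9803 to 0.9891, among Taf4a sKO libraries at 0.9859 to 0.9877, and between genotypes at 0.9266 to 0.9376.

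MuSCs rest between the basement membrane, a sheet of laminin, collagen IV, nidogen and perlecan, and the plasma membrane of the muscle fibre, with a fibrillar collagen matrix outside the sheet. They make part of this niche themselves: collagens and laminins from quiescent MuSCs signal back through integrins and other receptors, and fibronectin and tenascin-C are known to be deposited when muscle regenerates. Some of the matrix genes are expressed more strongly by fibro-adipogenic cells of the interstitium.

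Sequences of 6 member peaks are given first, for reference. They are the 2 raised and 2 lowered peaks with the smallest p-values, and 2 TSS peaks that hold CCAAT, the motif of NF-Y. Each is the plus strand of mm10 (GRCm38), at most the central 300 bases of the peak, with annotated untranslated regions of coding transcripts left out (the Timp3 peak lies over an exon of a non-coding transcript). Capitals in the first 4 mark matches on either strand to the NF-Y motif CCAAT, the Sp1 motif GGGCGG, the TATA box TATAAA, the AP-1 motif TGANTCA, the E-box CAGCTG of myogenic factors, the TEAD motif GGAATG and the Runx motif TGTGGT, and in the last 2 to the NF-Y motif alone. The motifs do not overlap each other in these 6 sequences. A match is a description of the letters and not a bound site. The Timp3 sequence, the most raised member peak, held no match to the 7 motifs, and the raised Sparc sequence and both lowered sequences held 1 CCAAT match each.
Timp3, raised, 4257 bp into the gene, chr10:86304508-86304749: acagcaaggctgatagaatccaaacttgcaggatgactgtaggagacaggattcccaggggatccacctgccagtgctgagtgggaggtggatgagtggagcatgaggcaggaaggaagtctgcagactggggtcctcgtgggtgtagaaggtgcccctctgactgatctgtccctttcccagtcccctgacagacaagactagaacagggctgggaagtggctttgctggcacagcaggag
Sparc, raised, TSS peak upstream of the start, chr11:55423834-55424133: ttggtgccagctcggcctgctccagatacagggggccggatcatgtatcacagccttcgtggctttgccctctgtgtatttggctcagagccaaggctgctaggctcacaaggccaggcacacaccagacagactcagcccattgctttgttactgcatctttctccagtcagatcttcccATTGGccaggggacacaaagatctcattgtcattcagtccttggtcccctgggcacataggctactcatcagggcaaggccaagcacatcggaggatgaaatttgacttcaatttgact
Timp2, lowered, 6153 bp into the gene, chr11:118349438-118349737: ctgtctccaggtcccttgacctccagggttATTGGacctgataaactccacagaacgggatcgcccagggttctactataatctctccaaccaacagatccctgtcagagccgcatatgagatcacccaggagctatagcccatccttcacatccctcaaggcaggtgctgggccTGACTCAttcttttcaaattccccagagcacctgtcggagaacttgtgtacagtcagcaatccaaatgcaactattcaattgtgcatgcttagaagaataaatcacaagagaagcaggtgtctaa
Col15a1, lowered, 2177 bp upstream, chr4:47205834-47206133: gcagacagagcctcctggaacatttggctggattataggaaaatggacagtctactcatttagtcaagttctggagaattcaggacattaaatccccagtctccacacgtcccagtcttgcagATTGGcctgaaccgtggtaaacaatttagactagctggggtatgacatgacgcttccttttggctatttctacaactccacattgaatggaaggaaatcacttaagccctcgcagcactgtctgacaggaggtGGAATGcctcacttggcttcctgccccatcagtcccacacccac
Nid2, TSS peak, upstream of the first exon, chr14:19750974-19751264: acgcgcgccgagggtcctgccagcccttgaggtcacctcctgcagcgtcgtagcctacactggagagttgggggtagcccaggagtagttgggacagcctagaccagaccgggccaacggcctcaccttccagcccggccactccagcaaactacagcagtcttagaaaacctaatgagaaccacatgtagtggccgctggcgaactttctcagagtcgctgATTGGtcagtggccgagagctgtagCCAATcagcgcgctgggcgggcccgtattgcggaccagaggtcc
Fn1, TSS peak, upstream of the first exon, chr1:71653201-71653457: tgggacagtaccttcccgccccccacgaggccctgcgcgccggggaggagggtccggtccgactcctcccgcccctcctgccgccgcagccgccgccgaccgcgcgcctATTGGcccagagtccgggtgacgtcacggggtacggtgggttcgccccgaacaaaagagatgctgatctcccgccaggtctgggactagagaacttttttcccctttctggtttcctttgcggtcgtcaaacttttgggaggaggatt

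In Taf4a sKO MuSCs the matrix genes gained accessibility at many peaks and lost it at few. Of the 38 TSS peaks, 16 were higher and 0 lower by limma (adjusted p under 0.05 over all peaks tested; at an unadjusted p under 0.05, 1 peak, that of Fbn2, was lower), where 13.1% of all 14094 TSS peaks were higher and 6.59% lower. Of the 72 other peaks, 39 were higher and 3 lower, against 28.7% and 14.8% of all 21176 other peaks that had a gene. Over all 75384 peaks tested, 28.0% were higher and 13.9% lower. All 110 member peaks passed the filter on low values (a mean above 10).

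The median log2 fold change was 0.207 for member TSS peaks and 0.469 for member other peaks, on the log2(value + 1) scale. The corresponding medians of all TSS peaks and all other peaks were 0.063 and 0.104. The median over every peak was itself 0.105 and not 0, and TMM scaling, which assumes that most peaks do not change, moved it to -0.006. The member medians were then 0.096 at TSS peaks and 0.357 at other peaks, and 0.045 and 0.31 with quantile normalization. With TMM the split of calls at member TSS peaks was 15 higher and 4 lower, with median-of-ratios scaling 15 and 4, and with quantile normalization 14 and 8, while all TSS peaks then held 22.1%, 22.6% and 33.2% lower calls. At the other peaks the split was 40 and 5 with TMM, where all other peaks held 26.2% higher and 23.0% lower calls, and 40 and 6 with quantile normalization, where they held 25.2% and 25%. Of the 55 raised member calls, 54 were shared with TMM and 53 with quantile normalization.

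**Figure D1:**
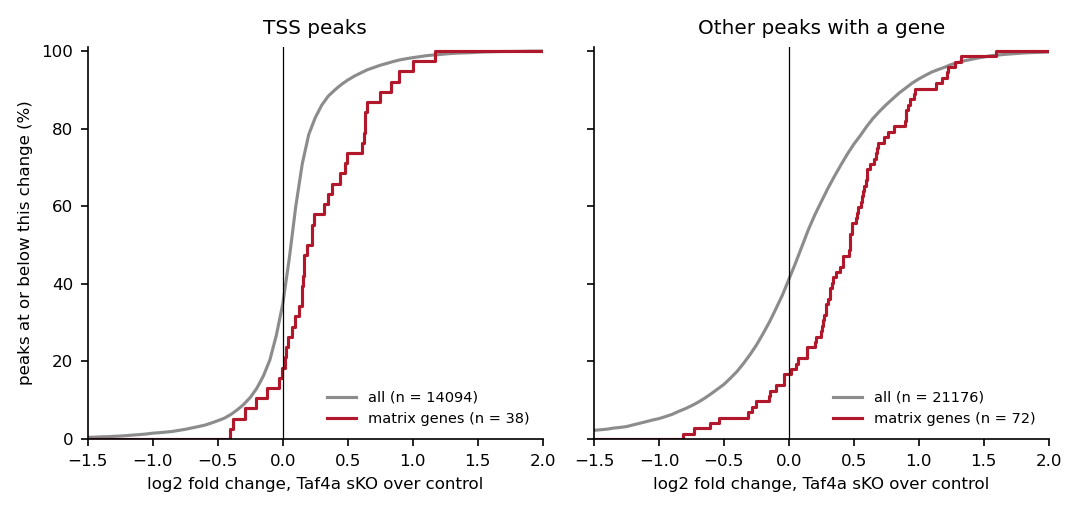
Cumulative share of peaks (vertical axis, percent) at or below each log2 fold change of Taf4a sKO over control (horizontal axis), for TSS peaks (left) and other peaks (right), for the matrix genes (red) and all peaks of the class (grey). The red curves lie to the right of the grey ones, with medians of 0.207 against 0.063 for TSS peaks and 0.469 against 0.104 for other peaks.

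Member other peaks carried more signal than other peaks at large (median of mean values 398.2 against 182.0), which makes a given change easier to call. Within the middle range of the members' mean values, 157.6 to 1202.6, 22 of 36 member other peaks were higher (61.1%), and 35.3% of all other peaks in that range. For TSS peaks within 507.0 to 1535.1 the shares were 38.9% and 13.5%. Genotypes did not overlap, with Taf4a sKO higher, at 19 of 38 member TSS peaks and 44 of 72 other peaks, beside 21.4% of all TSS peaks and 32.6% of all other peaks.

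Summed over the 110 peaks, the matrix genes took 0.2423%, 0.2348% and 0.2391% of the signal in the control libraries and 0.2708%, 0.2658% and 0.2656% in the Taf4a sKO libraries. Every Taf4a sKO library lay above every control. The means were 0.239% ± 0.00376 and 0.267% ± 0.00295 (SD, n = 3 each). In a bulk library a larger number of cells with an open peak and a wider opening per cell cannot be told apart.

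By the study's thresholds (a mean above 10 and a log2 ratio of group means beyond 1), 9 member peaks were gained and 0 lost, where 7.03% of all peaks were gained and 5.36% lost. Of the 9, 2 were TSS peaks (Sparc and Nid1), against 1.67% of all TSS peaks, and 7 were other peaks, against 6.96% of all other peaks. The 7 of 72 make 9.72%, near that background. All 9 gained peaks make 8.18% of the member peaks, near the 7.03% of all peaks. The gained peaks belonged to Timp3, Dcn, Nid1 (2 peaks), Lama2, Lama5, Nid2, Sparc and Col5a3. Of the 9, 5 lay at laminin and nidogen genes, and whether this exceeds the share of these genes was not tested.

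**Figure D2:**
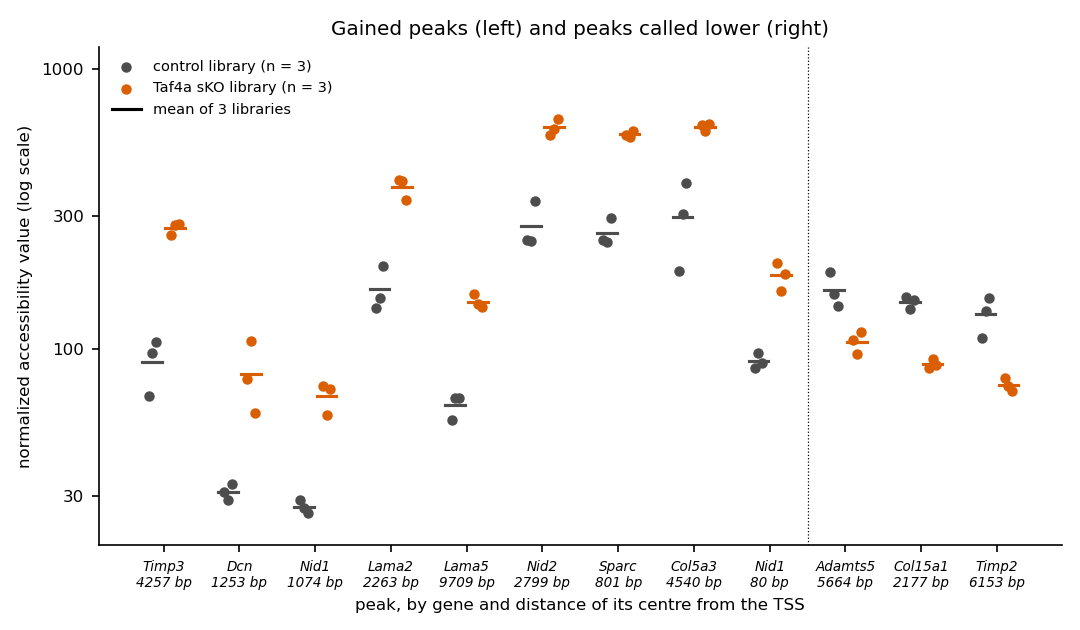
Normalized accessibility values (vertical axis, log scale) in the 3 control libraries (grey) and 3 Taf4a sKO libraries (orange) at the 9 gained peaks and the 3 peaks called lower, each named by gene and distance from the TSS; bars are means of 3 libraries. The genotypes do not overlap at any of the 12 peaks, and the Timp3 peak shows the widest gap, 68 to 106 against 255 to 280.

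Among the 42 genes with a listed peak, 25 had raised calls only, 2 had calls in both directions (Col15a1 and Timp2), and Adamts5 had a lowered call only. The remaining 14 genes held no call: Col11a1, Col14a1, Col4a1, Col4a2, Col6a1, Col6a2, Col8a1, Fbn1, Fbn2, Fn1, Lama3, Lamb2, Lamc1 and Postn. Every peak was raised at 5 genes with at least 2 peaks: Col1a2, Dcn, Nid1, Timp3 and Vcan. The same counts over all genes with a peak are not given here, and 28.0% of all peaks were higher. These gene counts therefore describe the members and do not set them apart from other genes.

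**Figure D3:**
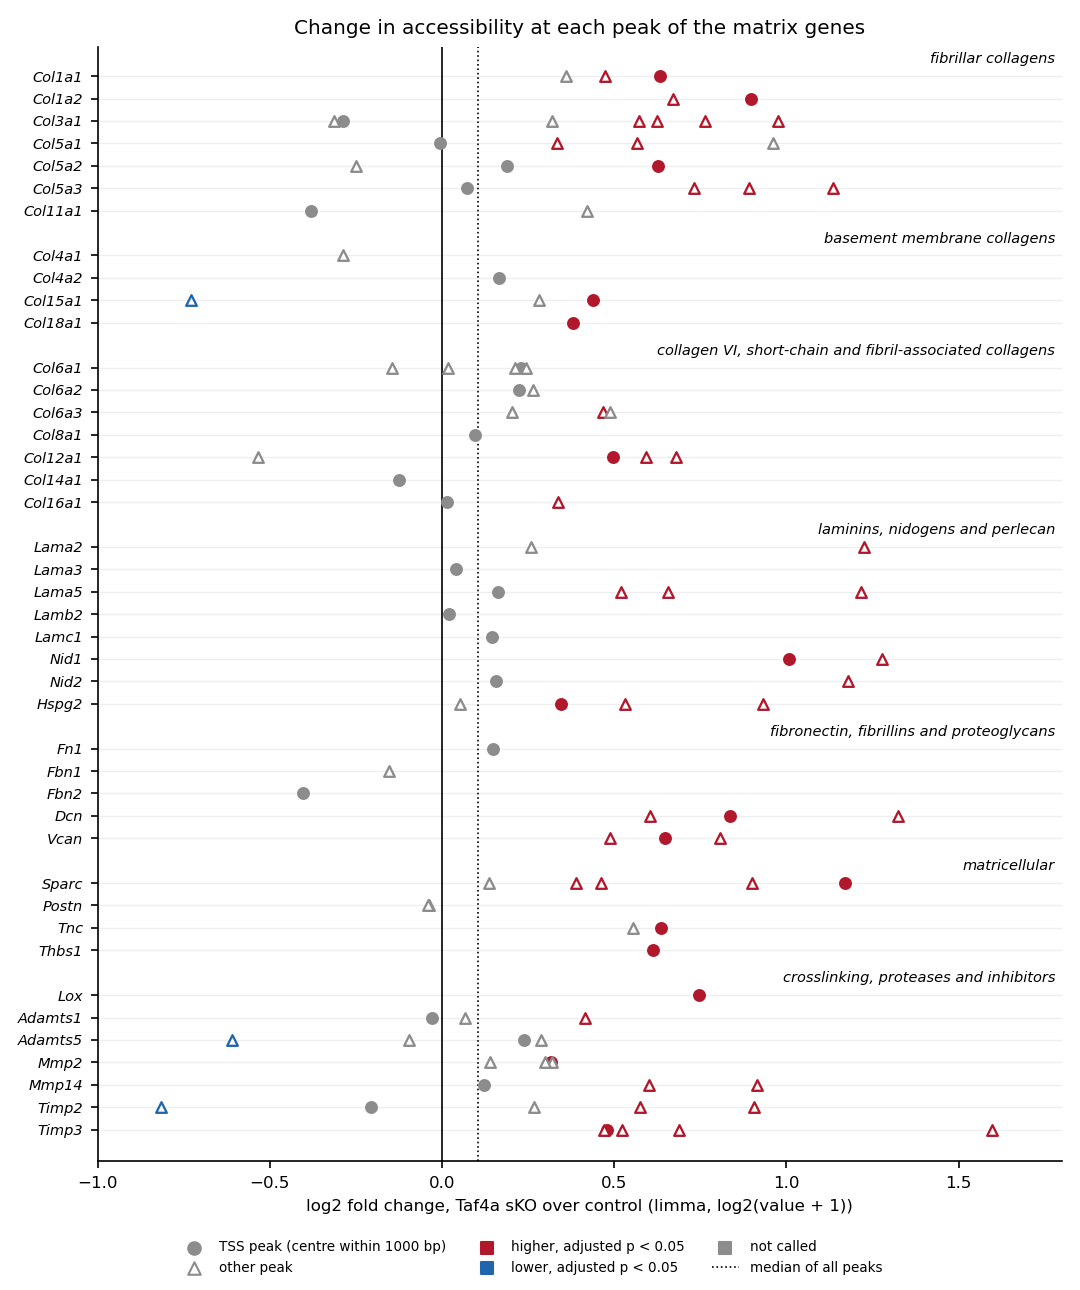
log2 fold change of Taf4a sKO over control (horizontal axis) at each of the 110 peaks, 1 line per gene and genes grouped by role; circles are TSS peaks, triangles other peaks, and colour shows the limma call. Of the circles 16 are red and none is blue, of the triangles 39 are red and 3 blue, and the dotted line is the median of all peaks, 0.105.

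Fibrillar collagens form the tension-bearing fibres of the interstitium: collagen I (Col1a1, Col1a2) and collagen III (Col3a1) make up their bulk, and collagens V and XI (Col5a1, Col5a2, Col5a3, Col11a1) set where fibrils start and how thick they grow. Of their 17 other peaks 11 were higher (64.7%, all other peaks 28.7%) and none lower (all other peaks 14.8%). Of their 8 TSS peaks 3 were higher (37.5%, all TSS peaks 13.1%): Col1a1, Col1a2 and the upstream of the 2 Col5a2 TSS peaks. The last was not called without Taf4a sKO replicate 2 or 3. The median of the TSS peaks was 0.13, and -0.086 with quantile normalization, whereas that of the other peaks was 0.571, and between 0.422 and 0.459 under the other scalings.

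At the Col1a2 TSS peak (chr6:4505080-4506035, centred 744 bp into the gene, downstream of its first annotated start and over later transcript starts) the controls read 295, 234 and 308 and Taf4a sKO 502, 514 and 534. All Taf4a sKO libraries were higher, with a 1.86-fold change (log2 0.90, SE 0.14, limma adjusted p = 1.7e-05). The intronic Col1a2 peak 2743 bp in was raised 1.59-fold. Col1a1, its partner chain, read 1243, 1021 and 1339 against 1940, 1816 and 1797 at the TSS peak (1.55-fold, limma adjusted p = 8.03e-05). Its upstream peak 7708 bp away, among the strongest of the members by summed signal, read 2626, 2264 and 2886 against 4027, 3474 and 3273 (1.39-fold, limma adjusted p = 0.00134). The genotypes were apart at both.

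Col5a3, the third chain of some collagen V molecules, changed inside the gene and not detectably at its start. The TSS peak read 789, 737 and 936 in controls and 938, 784 and 858 in Taf4a sKO, overlapping (1.05-fold, limma adjusted p = 0.669). The intronic peak 2262 bp in (chr9:20812365-20813244) read 1238, 1289 and 1755 against 2635, 2473 and 2741 (1.85-fold, log2 0.89, SE 0.12, limma adjusted p = 5.67e-06). The gained peak 4540 bp in read 190, 304 and 393 against 633, 600 and 639 (2.20-fold, limma adjusted p = 0.000631), and fell short of the gained threshold under the other 3 scalings and without control replicate 1. A further intronic peak, 9967 bp in, read 1032, 1158 and 1490 against 2066, 1903 and 2073 (1.66-fold, limma adjusted p = 4.72e-05). At all of these intronic peaks each Taf4a sKO library exceeded each control.

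Col3a1 had 7 peaks, the most of any member, and showed the same split between start and body. Its TSS peak read 174, 177 and 181 in controls and 143, 134 and 159 in Taf4a sKO, lower in every library and not called as deposited (log2 -0.29, limma adjusted p = 0.146), but called lower with TMM, median-of-ratios and quantile scaling. Its 4 peaks between 1568 and 9983 bp into the gene rose, by 1.54-, 1.49-, 1.70- and 1.96-fold. Col5a1 likewise had a TSS peak without a detectable change (2594, 2276 and 2571 against 2696, 2253 and 2473), called lower with quantile normalization, and a strong intronic peak 2347 bp in that read 3466, 2930 and 4050 against 4757, 4219 and 4112 (1.26-fold, limma adjusted p = 0.0201); the latter was not called without control replicate 2 (adjusted p = 0.088) or without Taf4a sKO replicate 1 (adjusted p = 0.11). Col11a1 held 2 weak peaks, neither called.

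Basement membrane collagens gave a mixed picture. Collagen IV, whose Col4a1 and Col4a2 chains build the network of the sheet and share a start region, had a TSS peak listed under Col4a2 at 1261, 1175 and 1463 in controls and 1517, 1431 and 1412 in Taf4a sKO, overlapping and not called (1.12-fold). Collagens XV and XVIII are proteoglycan-like collagens of the same sheet. The Col15a1 TSS peak (chr4:47207831-47208994) read 903, 890 and 955 against 1303, 1204 and 1214 (1.35-fold, log2 0.44, limma adjusted p = 0.00172), and that of Col18a1 rose 1.30-fold (limma adjusted p = 0.0215), a call lost with quantile normalization and in 4 of 6 fits that left out 1 library.

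In the opposite direction, the Col15a1 peak 2177 bp upstream (chr4:47205830-47206137), whose sequence is given above, read 154, 139 and 150 in controls and 86, 92 and 88 in Taf4a sKO. It fell to 0.603-fold (log2 -0.73, SE 0.17, limma adjusted p = 0.00137) within about 2 kb of a TSS peak that rose. The intronic Col15a1 peak 9384 bp in overlapped between genotypes (243, 275 and 351 against 330, 344 and 372; limma adjusted p = 0.135), and was called raised without control replicate 3 (log2 0.43, adjusted p = 0.0063).

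Collagen VI links the basement membrane to the interstitium and is known to support MuSC self-renewal, and collagens VIII, XII, XIV and XVI belong to the short-chain and fibril-associated types. In this group 1 of 6 TSS peaks (16.7%) and 4 of 12 other peaks (33.3%) were higher, near the 13.1% and 28.7% of all peaks of these classes, and the TSS median was 0.159 as deposited and -0.039 with quantile normalization. None of the 7 peaks listed under Col6a1 and Col6a2, neighbouring genes of collagen VI, was called as deposited, with log2 fold changes from -0.14 to 0.26, and 1 Col6a1 peak was called lower under the other scalings. Without control replicate 3, 4 of the Col6a1 and Col6a2 peaks were called raised. Col6a3, the third chain, held 1 raised peak of 3 (1029, 953 and 1255 against 1629, 1426 and 1400, 1.38-fold, limma adjusted p = 0.00221).

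Col12a1, a fibril-associated collagen of tendon and muscle fascia, accounted for the TSS call and for 2 of the other calls. Its TSS peak (chr9:79718330-79719814) read 1489, 1232 and 1524 against 2012, 2002 and 1946 (1.41-fold, log2 0.50, SE 0.11, limma adjusted p = 0.000624). The peak 4164 bp in read 239, 231 and 240 against 376, 367 and 395 (1.60-fold, limma adjusted p = 0.000299). The peak 1669 bp in read 397, 345 and 455 against 548, 639 and 612 (1.51-fold, limma adjusted p = 0.000949). All libraries of Taf4a sKO were above all controls at these 3 peaks, whereas Col8a1, Col14a1 and Col16a1 had TSS peaks between 0.92- and 1.07-fold, those of Col14a1 and Col16a1 called lower with quantile normalization.

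Laminins are the heterotrimers that MuSCs bind through integrin α7β1, nidogens tie laminin to collagen IV, and perlecan (Hspg2) is their heparan sulphate proteoglycan. Of the 10 other peaks of this group 8 were higher (80.0%, all other peaks 28.7%), 4 of them gained (all other peaks 6.96%). The median log2 fold change of the 10 was 0.794, and lay between 0.623 and 0.683 under the other scalings. Of the 7 TSS peaks 2 were higher (28.6%, all TSS peaks 13.1%), those of Nid1 and Hspg2.

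The upstream peak of Lama2, the α chain of the adult muscle laminin, lay 2263 bp from the TSS (chr10:27621722-27622320). It read 140, 153 and 198 in controls and 401, 400 and 341 in Taf4a sKO (2.34-fold, log2 1.22, SE 0.15, limma adjusted p = 1.55e-06). The lowest Taf4a sKO library exceeded the highest control by more than the spread within either genotype. Lama5, an α chain of vessel and fetal basement membranes, had 3 raised peaks beside a TSS peak that was not called, and the gained one, 9709 bp in, read 56, 67 and 67 against 157, 145 and 142 (2.32-fold, limma adjusted p = 1.27e-05). The TSS peaks of Lama3, Lamb2 and Lamc1 had no call as deposited; that of Lamb2 was called lower with quantile normalization, and the Lamc1 TSS peak (4826, 4282 and 5655 against 5778, 5389 and 5075, overlapping) was called only without control replicate 3, at an adjusted p of 0.014.

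Both nidogens had gained peaks. The Nid1 TSS peak (chr13:13437376-13437886, over the first exon) read 86, 97 and 89 in controls and 204, 162 and 185 in Taf4a sKO (2.01-fold, log2 1.01, SE 0.17, limma adjusted p = 4.8e-05). The next Nid1 peak, 1074 bp in, read 29, 27 and 26 against 74, 58 and 72 (2.42-fold, limma adjusted p = 0.000225). At Nid2 the gained peak lay 2799 bp upstream (chr14:19748082-19748850) and read 246, 244 and 338 against 581, 614 and 663 (2.26-fold, log2 1.18, SE 0.14, limma adjusted p = 8.47e-07). The Nid2 TSS peak, whose sequence above holds 2 CCAAT matches, read 1756, 1664 and 1904 against 2046, 1939 and 1946, apart by a small margin and not called (1.12-fold). With quantile normalization the Nid2 peak was no longer gained. The Nid1 TSS peak lay just past the gained threshold and fell short of it under the other 3 scalings, with a pseudocount of 10, and without control replicate 1, control replicate 3 or Taf4a sKO replicate 1, while its limma call held in each.

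Perlecan rose at the TSS (2145, 1977 and 2429 against 2892, 2742 and 2662, 1.27-fold, limma adjusted p = 0.00923) and 3338 bp upstream (245, 248 and 340 against 480, 585 and 514, 1.91-fold, limma adjusted p = 2.25e-05). The TSS call was lost without Taf4a sKO replicate 1.

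Fibronectin (Fn1) and the fibrillins, which form the microfibrils of elastic tissue, held no call. The Fn1 TSS peak, sequence above with 1 CCAAT match, read 957, 957 and 1168 against 1155, 1132 and 1112, overlapping (1.11-fold, limma adjusted p = 0.302). Fbn1, with a broad peak over its alternative start, and Fbn2 were lower in every Taf4a sKO library (3212, 3082 and 3401 against 3013, 2753 and 2942; 100, 104 and 111 against 82, 85 and 71) without a call as deposited, and both were called lower under each of the other 3 scalings.

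The proteoglycans decorin (Dcn), which coats collagen fibrils and binds growth factors, and versican (Vcan), a large hyaluronan-binding proteoglycan of provisional matrix, were raised at all 6 of their peaks. The gained Dcn peak 1253 bp upstream (chr10:97478196-97478516) read 31, 29 and 33 against 78, 107 and 59 (2.50-fold, log2 1.32, SE 0.25, limma adjusted p = 0.000182), a low-signal peak with a wide spread in Taf4a sKO. The Vcan TSS peak (chr13:89742204-89742686) read 446, 409 and 455 against 686, 692 and 674 (1.57-fold, log2 0.65, SE 0.12, limma adjusted p = 0.000139). The broad Vcan peak 2354 bp in read 2358, 2063 and 2573 against 3522, 3178 and 3079 (1.40-fold, limma adjusted p = 0.000674). Neither Vcan peak overlapped between genotypes.

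Matricellular proteins modulate how cells attach to matrix and do not build it. The 3 of these genes with a TSS peak all had it raised, where 13.1% of all TSS peaks were higher. They were Sparc, a collagen-binding glycoprotein, Tnc (tenascin-C) and Thbs1 (thrombospondin-1). The Sparc peak (chr11:55423788-55424179, sequence above), centred 801 bp upstream and not reaching the start itself, read 245, 242 and 294 in controls and 580, 574 and 601 in Taf4a sKO. It rose 2.25-fold (log2 1.17, SE 0.13, limma adjusted p = 3.59e-07) with Taf4a sKO libraries that differed from each other by little, and was not gained with quantile normalization. Inside Sparc, the peak 8672 bp in read 233, 160 and 187 against 348, 336 and 390 (1.87-fold, limma adjusted p = 6.17e-05), and that 4953 bp in read 1271, 1112 and 1404 against 1818, 1643 and 1733 (1.38-fold, limma adjusted p = 0.00146).

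Tnc read 613, 552 and 749 against 1106, 914 and 942 at its TSS peak (1.55-fold, limma adjusted p = 0.000294), and Thbs1 read 1730, 1583 and 2147 against 2934, 2675 and 2675 (1.53-fold, limma adjusted p = 0.000127). Both were apart between genotypes. Postn (periostin), often induced in injured tissue, had 2 upstream peaks and no TSS peak, with 0.97-fold at each and no call.

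The crosslinking and protease group held the most raised and the most lowered member peak. Lysyl oxidase (Lox), which crosslinks collagen and elastin, read 1168, 973 and 1415 at its TSS peak in controls and 1939, 1975 and 1979 in Taf4a sKO (1.68-fold, log2 0.75, SE 0.12, limma adjusted p = 3.11e-05). The 3 Taf4a sKO libraries nearly coincided and lay above the scattered controls. Of the group's 18 other peaks 9 were higher (50.0%, all other peaks 28.7%) and 2 lower (11.1%, all other peaks 14.8%). Of its 7 TSS peaks 3 were higher (42.9%, all TSS peaks 13.1%), those of Lox, Mmp2 and Timp3.

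TIMP3, a matrix-bound inhibitor of metalloproteinases, was raised at all 5 peaks. The gained peak 4257 bp into the gene (chr10:86304508-86304749, over an annotated non-coding exon, sequence above) read 68, 97 and 106 in controls and 255, 277 and 280 in Taf4a sKO. Its 3.02-fold change (log2 1.60, SE 0.17, limma adjusted p = 2.39e-07) was the largest among the members, and no library of one genotype came near the other. The Timp3 TSS peak read 502, 451 and 496 against 716, 644 and 659 (1.39-fold, limma adjusted p = 0.00254).

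Timp2, which inhibits MMP2 and also serves in its activation with MMP14, moved both ways within its introns. The peak 2599 bp in (chr11:118352856-118353426) read 289, 286 and 308 against 587, 555 and 515 (1.87-fold, log2 0.90, SE 0.13, limma adjusted p = 6.68e-06). The peak 6153 bp in (chr11:118349389-118349785, sequence above) read 110, 137 and 153 against 79, 74 and 71, and fell to 0.568-fold (log2 -0.82, SE 0.19, limma adjusted p = 0.00112). The genotypes were apart at both, in opposite directions. Its TSS peak read 1685, 1459 and 1806 against 1488, 1428 and 1363, overlapping and not called as deposited, but called lower under each of the other scalings.

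Among the proteases, MMP14, a membrane-anchored collagenase, had 2 raised intronic peaks (1.88- and 1.52-fold) beside a TSS peak that was not called (1599, 1401 and 1530 against 1640, 1709 and 1581). The gelatinase gene Mmp2 had a TSS peak at 542, 483 and 593 against 649, 704 and 655 (1.24-fold, limma adjusted p = 0.0405), a call lost under TMM, median-of-ratios and quantile scaling and in 5 of 6 fits that left out 1 library. Adamts1 and Adamts5 cleave versican and aggrecan. The Adamts1 TSS peak, the largest of the members by summed signal, read 6630, 5780 and 6708 against 6592, 6095 and 6023, overlapping (0.98-fold, limma adjusted p = 0.837), but it was called lower under each of the other 3 scalings. Per 100 bp it held 216 in controls and 212 in Taf4a sKO, close to the Lamc1 TSS peak at 242 and 267. The Adamts5 peak 5664 bp in read 189, 158 and 143 against 108, 96 and 115 and fell to 0.656-fold (log2 -0.61, SE 0.17, limma adjusted p = 0.00623).

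Raised calls made up 42.1% of the member TSS peaks and 54.2% of the member other peaks, with a gap of the same direction over all peaks of the classes (13.1% and 28.7%). Of 26 genes with both kinds of peak, 9 had a raised TSS peak and a raised other peak, 9 had a raised other peak beside a TSS peak that was not called higher (Adamts1, Col16a1, Col3a1, Col5a1, Col5a3, Lama5, Mmp14, Nid2 and Timp2), and 4 had the reverse (Col15a1, Col5a2, Mmp2 and Tnc). Downstream of the TSS 27 of 43 other peaks were higher (62.8%), and upstream 12 of 29 (41.4%), where all other peaks held 28.8% downstream and 28.6% upstream. Counts of genes with both kinds of peak are not given here for genes outside the members. Whether the positions differ beyond chance was not tested. TSS peaks and other peaks of 1 gene share their libraries and are not independent replicates.

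**Figure D4:**
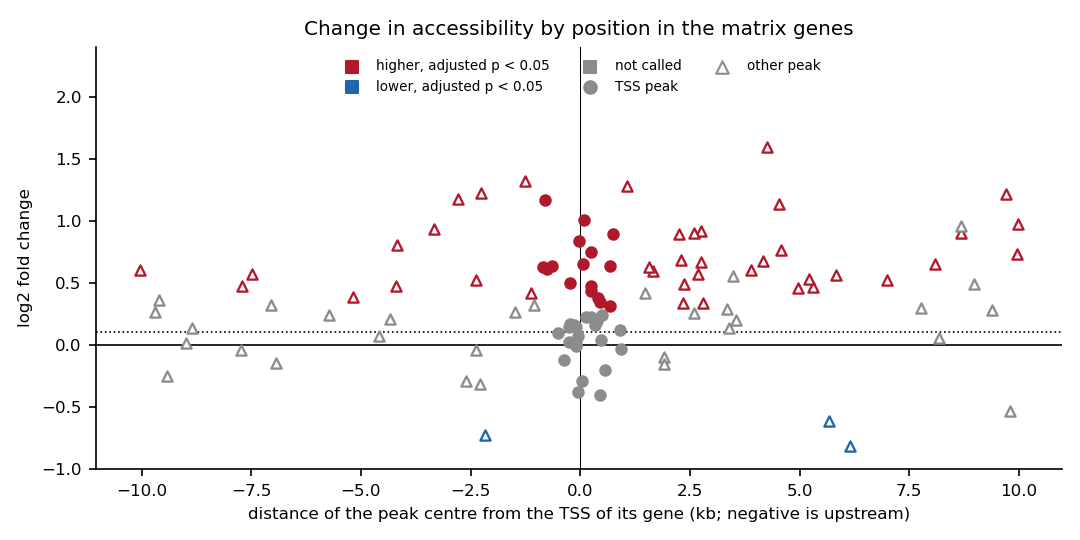
log2 fold change of each member peak (vertical axis) by the distance of its centre from the TSS (horizontal axis, kb, negative is upstream); circles are TSS peaks, triangles other peaks, and colour shows the limma call. Raised peaks (red) lie on both sides of the TSS out to 10 kb, 27 of 43 downstream and 12 of 29 upstream, and the dotted line is the median of all peaks, 0.105.

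The deposited table lists peaks over about 10 kb from a TSS under no gene, and some peaks inside a matrix gene under another gene, so the longer matrix genes hold further peaks that were not members. In 31 of the 43 genes 250 such peaks lay inside the gene body, 242 listed under no gene and 8 under another, and 123 of them were higher (49.2%) and 29 lower (11.6%), beside 28.0% and 13.9% of all peaks. The genes with the most were Fbn1 (14 of 26 higher, 3 lower), Lama2 (11 of 26 higher, 5 lower), Col4a2 (14 of 24 higher, 1 lower) and Col4a1 (11 of 18 higher, 2 lower). Genes without a call near the start, collagen IV and fibrillin-1, thus had raised peaks further in, and fewer lowered ones. Lowered peaks outnumbered raised ones at Lama3 (5 and 1), Col5a1 (5 and 3), Lama5 (3 and 2) and Col6a1 (1 and 0). Loxl2, a lysyl oxidase relative without a listed peak, held 2 raised peaks inside the gene, at 924, 798 and 955 against 1761, 1616 and 1553 (log2 0.88, SE 0.11, limma adjusted p = 1.04e-06) and at 75, 72 and 85 against 165, 115 and 145.

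By letters alone, CCAAT occurred in the central 300 bases of 15 of 38 member TSS peaks (39.5%, all TSS peaks 28.1%) and GGGCGG in 24 (63.2%, all TSS peaks 57.8%), both strands counted. In the other peaks CCAAT occurred in 31 of 72 (43.1%, all other peaks 32.1%) and GGGCGG in 15.3% (all 15.9%). There TGANTCA, the AP-1 motif, occurred in 27 of 72 (37.5%, all other peaks 23.4%) and GGAATG, the TEAD motif, in 22 (30.6%, all other peaks 19.9%), whereas in member TSS peaks the former was in 7.89% (all 6.62%) and the latter in 7.89% (all 11.3%). Among raised other peaks TGANTCA was in 14 of 39 members (35.9%), no more than its 37.5% share of all member other peaks. Of all other peaks it was in 33.6% of the raised, 19.9% of those not called and 17.2% of the lowered. The E-box CAGCTG was in 18.4% of member TSS peaks (all 19.5%) and 36.1% of member other peaks (all 30.6%), the TATA box TATAAA in 5.26% (all 4.32%) and 9.72% (all 9.7%), and TGTGGT in 15.8% of member TSS peaks (all 11.7%) and 12.5% of member other peaks (all 21.3%). The GC content of these windows had a median of 60.7% in member TSS peaks and 64.3% in all, and of 52.2% and 50.7% in other peaks.

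In a list of other matrix and matrix-modifying genes, of which 72 had a peak, 16 of 64 TSS peaks were higher and 7 lower, and 39 of 94 other peaks higher and 14 lower. Raised calls were 25% and 41.5%, against 13.1% and 28.7% of all peaks of the classes, and lowered calls 10.9% and 14.9%, against 6.59% and 14.8%; the 21 lower calls became 35 of 158 with TMM, where 22.1% of all TSS peaks and 23.0% of all other peaks were lower. Elastin (Eln) had an intronic peak raised 2.47-fold (249, 265 and 288 against 631, 619 and 735), Loxl1 an intronic peak raised 2.77-fold and Ecm1 a downstream peak raised 2.50-fold. A peak in Emilin1, an elastic fibre glycoprotein, fell to 0.122-fold (253, 168 and 163 against 21, 19 and 28, limma adjusted p = 2.08e-09), further than any of the 110 member peaks. Lamb3 and Tnr fell to 0.513- and 0.353-fold at 1 peak each.

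Among receptors that bind matrix, 7 of 22 TSS peaks and 16 of 39 other peaks were higher, and 3 other peaks lower (31.8% and 41.0% higher, against 13.1% and 28.7% of all peaks of the classes; 7.69% of the other peaks lower, against 14.8%); 0 TSS peaks were lower by limma, adjusted or at an unadjusted p under 0.05. With TMM 10 of the 61 receptor peaks were lower, where all TSS peaks and all other peaks held 22.1% and 23.0%. The collagen receptor Ddr1 rose 2.06-fold at its TSS peak (436, 429 and 508 against 926, 922 and 977, limma adjusted p = 3.56e-07). The proteoglycan Sdc3 had a peak raised 2.55-fold and another lowered to 0.531-fold, and the hyaluronan receptor Cd44 a peak raised 2.09-fold. Single peaks of dystroglycan (Dag1, 0.648-fold) and of integrin α7 (Itga7, 0.734-fold, the surface protein of the sort), both laminin receptors of muscle, fell. Another intronic Itga7 peak rose (953, 968 and 1141 against 1429, 1320 and 1426, log2 0.45, limma adjusted p = 0.00172), and its TSS peak was not called.

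Other cells of muscle express matrix strongly, so markers of each were read at their TSS peaks. MuSC markers all had one (10 of 10 genes), Vcam1 higher and Pax7 lower (means 3797 against 3011), while 4 of the 6 other Pax7 peaks were higher (log2 0.43 to 1.00). The Cre is driven by Pax7, and the part of its allele in these values was not tested. Of 10 fibro-adipogenic markers 7 had one; Dcn and Lum were higher and Dpt and Smoc2 lower, their summed values were 1693, 1659 and 1899 in controls and 1675, 1690 and 1584 in Taf4a sKO, and the most abundant, Cd34, had means of 701.0 and 585.0. Ly6a, Pdgfra and Pi16 had no TSS peak. None of 8 haematopoietic markers had a TSS peak, Ptprc included.

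Endothelial markers had a TSS peak at 4 of 8 genes, Pecam1 and Cdh5 not among them, and summed to 1863, 1715 and 2267 against 2389, 2423 and 2324, with Tek the most abundant and the only one called. Mural markers had one at 6 of 7 genes and summed to 4700, 4516 and 5083 against 5510, 5194 and 5298, with Myh11 and Acta2 higher, Acta2 the most abundant and Rgs5 without a TSS peak. Tenocyte markers summed to 2862, 2667 and 3322 against 3565, 3038 and 3195 (Scx the most abundant, Tnmd without a TSS peak), with no call by limma (unadjusted p under 0.05 for Scx alone). Over all their listed peaks, TSS peaks included, 11 of 42 were higher and 3 lower for MuSC markers. The counts were 9 of 26 and 5 for fibro-adipogenic, 3 of 9 and 1 for endothelial, and 10 of 16 and 0 for mural markers. For tenocyte markers they were 0 of 6 and 0, and for haematopoietic markers 1 of 3 and 0. Of all peaks 28.0% were higher and 13.9% lower. Dcn was both a member and a fibro-adipogenic marker. The sort had depleted cells with CD31, the product of Pecam1, and the study describes the sorted cells as not fully pure on reanalysis. The endothelial and mural sums moved with the raised matrix peaks. In each sum the most abundant gene was raised: Tek (means 1249 against 1626) and Acta2 (1728 against 2147). The TSS peaks of Kdr, Erg and Cldn5, and of Pdgfrb, Cspg4, Kcnj8 and Notch3, were not called. The part of such cells in the raised matrix peaks was not tested.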

How the data were processed

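ATAC-seq was done on 3 control and 3 Taf4a sKO libraries. The steps of the authors are given as in the submitters' notes and the study's methods. The authors trimmed reads (Trimmomatic 0.39), aligned them to mm10 (STAR 2.7.11b) and removed duplicates (Picard 3.1.1). They then called peaks, counted reads per peak with featureCounts, scaled counts for sequencing depth and annotated each peak to the nearest gene. No shift for Tn5 cuts is described. The deposited values, a score per peak and library, are these scaled counts rounded to whole numbers, so no count model was used. The gaps between the whole-number values implied between 27153768 and 35226223 reads in peaks per library.

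Here, limma 3.58.1 (R 4.3.3; trend, robust) was fitted to log2(value + 1) of all 75384 peaks with a mean above 10, with Benjamini-Hochberg adjustment over all of them. The code was tested on simulated data. The members, lists and motifs were chosen with earlier results of these data known. Named peaks were, for each role, the TSS peak and the 2 other peaks of smallest p, every gained or lost peak without overlap, and the 2 peaks of each class with most signal; in the outside lists the 3 raised and 3 lowered peaks of smallest p. Other named members were chosen after their values were seen. Gene features came from GENCODE M21, which held 99.77% of the table's genes, and bases from GRCm38. Alternatives were other scalings, filters, pseudocounts, TSS distances, a replicate block and leaving out each library. Exact permutation of 3 against 3 libraries cannot go below p = 0.10 and was not used. Labels gave no batches. The result of 1 marker list is not reported here.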

Additional observations from a re-analysis of the deposited data

How the results depend on the processing

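Of the 28 named peaks, none changed direction under another scaling, filter, pseudocount or moderation. The Adamts1 TSS peak, not called as deposited, ranged from -0.098 to 0.01 (log2) when 1 library was left out, and was called lower with TMM (-0.141), median-of-ratios (-0.142) and quantile (-0.103) scaling. The count of raised member TSS peaks was 16, and 13 to 25 when 1 library was left out, the highest without control replicate 3, where raised calls over all TSS peaks went from 13.1% to 29.5%. It was 9 with TSS peaks taken within 500 bp and 33 within 3000 bp, which changes how many peaks enter. The shares of all peaks under these cut-offs are not given here, so the counts have no background. Member TSS peaks lay farther from the TSS (median 296 bp) than all TSS peaks (174 bp), and the part of this distance in the raised share was not tested. Lowered member TSS peaks numbered 4 with TMM, 4 with median-of-ratios factors, 8 with quantile normalization, 1 within 3000 bp and 0 to 1 when 1 library was left out. Of the other member peaks, 22 were raised with TSS peaks taken within 3000 bp, and 5, 5 and 6 were lowered with the 3 scalings. Outside the members the lowered matrix peaks numbered 35, 36 and 38 and the lowered receptor peaks 10, 10 and 12 with the same scalings, the latter 1 to 3 when 1 library was left out (1 without Taf4a sKO replicate 2). With quantile normalization the median log2 fold change was 0.045 for member TSS peaks and 0.31 for member other peaks, and within 3000 bp the TSS median was 0.335. Gained member peaks numbered 5 with quantile normalization (4.55%, all peaks 5.87%), 35 with a 1.5-fold threshold (31.8%, all peaks 19.4%; 3 lost, 2.73% against 11.5%) and 1 with a log2 threshold of 1.5 (0.909%, all peaks 1.46%), so under the first and last the members' share was below that of all peaks. The shared replicate numbers did not pair the libraries (deviations of same-numbered libraries correlated at 0.11, -0.118 and -0.029). With a replicate block 16 member TSS peaks and 43 other peaks were raised, with no call lost. In that fit 12.8% of all TSS peaks and 30.0% of all other peaks were raised. The alternatives for peaks inside the genes but listed elsewhere were added after the data were seen, and gave 92 to 147 raised. The share of all peaks raised under each alternative is not given here. At all other peaks with a gene, a different class, it ran from 22.0% (without control replicate 2) to 37.6% (without control replicate 3). The replicates are described as biological, but which animals they came from was not given in the sources used here.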
